A study of Mus musculus with 6 samples.

Results

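The set described here comprised 52 genes of inherited hearing loss and of hair cell function, taken by name from a deposited mouse count table that held 24062 gene symbols. Of these, 50 matched a symbol of the table directly, and Diaph1 and Diaph3 were found through its alias column, where they stand as Diap1 and Diap3. Auditory nerve was dissected out of the cochlea of young adult mice and its RNA sequenced. The tested animals carried the labelled genotype Vcan knockout (3 libraries) and the others were wildtype (3 libraries). The labels give the C57BL/6 strain for both genotypes, and each library pooled RNA of the left and right cochlea of a single mouse. How Vcan was altered, in which cells, and whether some product remains is not stated in the labels, so the name knockout is used here only as the labels give it. Vcan (chr13:89655309-89743027 on GRCm38) encodes versican, a chondroitin sulfate proteoglycan of the extracellular matrix.

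Hair cells turn sound into electrical signals through a bundle of actin-filled stereocilia whose tips are joined by fine links of cadherins, held by myosins and scaffold proteins and coupled to transduction channels. Inner hair cells pass the signal to spiral ganglion neurons, whose axons form the auditory nerve together with Schwann cells and, near the brainstem, central glia. The sensory epithelium lies beside the nerve fibres, roofed by the tectorial membrane and flanked by the spiral ligament and stria vascularis, which keep the endolymph rich in potassium, and many genes of inherited deafness act in those structures and not in the nerve.

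The libraries held 74530860, 92513887 and 86179835 counts in the knockout group and 82860217, 88543242 and 88694031 counts in the wildtype group. Levels are given as CPM, a gene's count as a rate of the scaled total of its library. Vcan itself lay at 5.44, 2.70 and 2.88 CPM in knockout libraries and at 8.36, 9.61 and 7.32 CPM in wildtype libraries, without overlap, and its log2 fold change was −1.20 (SE 0.32). Its adjusted p was 0.558 by edgeR's quasi-likelihood test with Benjamini-Hochberg adjustment and 0.0334 by DESeq2. Markers of the labelled tissue were abundant in every library, with summed levels of 9938 to 10810 CPM in knockout and 5952 to 11937 CPM in wildtype libraries for 12 spiral ganglion neuron markers, and 10120 to 14257 CPM in knockout and 9963 to 18615 CPM in wildtype libraries for 11 Schwann cell markers. Wildtype library 3 stood apart. It had the lowest sums of both lists, and its correlations of log2 levels with the other libraries were 0.958 to 0.965, against 0.970 to 0.993 for all other pairs. Fibroblast markers (4 genes) summed to 914, 1044 and 904 CPM in knockout and 1214, 1251 and 1206 CPM in wildtype libraries. Endothelial markers (4 genes) summed to 166, 179 and 177 CPM in knockout and 149, 150 and 144 CPM in wildtype libraries. Neither list overlapped between genotypes (exact permutation p = 0.1, two-sided, the smallest that 3 against 3 allow). Their part in the results was not tested. Sums of bone cell, skeletal muscle and marrow markers overlapped between genotypes. In bulk tissue, fewer cells of a type and less RNA per cell cannot be told apart.

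Promoters of 4 members are shown because these genes mark the patterns described below. Slc26a5 encodes prestin, the motor protein of outer hair cells, and differed most between libraries among the members with more than 3 counts in every library. Myo15 encodes an unconventional myosin that carries cargo to stereocilia tips, and varied with hair cell markers across libraries. Ildr1, a protein of tricellular junctions, was highest in wildtype library 3, as the summed supporting cell and stria markers were. Its r with those sums was 0.887 and 0.881, or 0.697 and 0.219 without the 2 libraries farthest from the median of each list. Prps1, a widely used enzyme of nucleotide synthesis, was nearly level across libraries. Each is the 250 bases before the RefSeq start on GRCm38.p6, read along the gene's strand, and the capitals mark a TATA box (TATAAA), a GC box (GGGCGG) or an E-box (CAGNTG) on either strand. They lie at chr5:21865605-21865854 (minus strand), chr11:60469089-60469338 (plus strand), chr16:36693728-36693977 (plus strand) and chrX:140456353-140456602 (plus strand).
Slc26a5: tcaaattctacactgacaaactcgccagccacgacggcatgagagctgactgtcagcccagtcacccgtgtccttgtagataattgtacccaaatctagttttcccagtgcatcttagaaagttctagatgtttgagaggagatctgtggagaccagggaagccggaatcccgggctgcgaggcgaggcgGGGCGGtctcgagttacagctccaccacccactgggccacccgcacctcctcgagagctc
Myo15: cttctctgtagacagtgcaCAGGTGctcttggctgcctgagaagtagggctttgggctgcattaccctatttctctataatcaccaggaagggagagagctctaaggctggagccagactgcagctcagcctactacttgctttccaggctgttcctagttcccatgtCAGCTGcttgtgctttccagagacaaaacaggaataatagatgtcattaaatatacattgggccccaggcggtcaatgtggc
Ildr1: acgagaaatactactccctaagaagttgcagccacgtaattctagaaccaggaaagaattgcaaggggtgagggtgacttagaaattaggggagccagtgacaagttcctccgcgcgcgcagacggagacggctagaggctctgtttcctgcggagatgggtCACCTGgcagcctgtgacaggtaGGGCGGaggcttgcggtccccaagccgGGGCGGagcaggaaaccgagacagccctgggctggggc
Prps1: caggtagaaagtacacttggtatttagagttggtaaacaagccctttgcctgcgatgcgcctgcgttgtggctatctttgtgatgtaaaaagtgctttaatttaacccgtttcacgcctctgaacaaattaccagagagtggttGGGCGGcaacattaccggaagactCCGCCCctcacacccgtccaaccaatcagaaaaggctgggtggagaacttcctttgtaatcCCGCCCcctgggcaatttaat
The Slc26a5 stretch held 1 GC box, the Myo15 stretch held 2 E-boxes, the Ildr1 stretch held 2 GC boxes and 1 E-box, and the Prps1 stretch held 3 GC boxes. Among all 32817 promoters of the RefSeq table, 12.4% held the TATA box, 32.7% the GC box and 44.8% the E-box letters, and a match is a description of letters only. The table had a promoter for 41 of the 52 members.

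No member differed between genotypes by edgeR's quasi-likelihood test at an adjusted p under 0.05, against 23 of 16722 genes tested (0.138%). That count of genes was 3 to 14 when any 1 library was left out. All 52 members had passed the filter on low counts. By unadjusted p under 0.05 edgeR gave 1 member, Crym, against a background of 5.2% of genes, and limma-voom called none, against a background of 0.132%. DESeq2 called 1 member, again Crym, against a background of 1.39%, and 2 members had no adjusted p there. The authors' deposited table likewise had 1 of the 49 members with an adjusted p under 0.05, against 1.34% of its genes. Levels of the genotypes did not overlap for 3 members, Crym and Lhfpl5 higher (5.42% of all genes) and Myo6 lower (4.93% of all genes) in knockout libraries. This share of members lies below the 10.3% of all genes whose groups did not overlap in either direction.

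Crym encodes mu-crystallin, a thyroid hormone binding protein whose variants cause dominant deafness, and in the cochlea it is known from fibrocytes of the spiral ligament. It stood at 13.5, 12.8 and 13.4 CPM in knockout libraries and at 6.67, 8.37 and 7.36 CPM in wildtype libraries. Every knockout library lay above every wildtype library, and the replicates of each genotype lay close together. Its mean was 13.3 ± 0.358 CPM in knockout and 7.47 ± 0.853 CPM in wildtype nerves (SD, n = 3 each), a log2 fold change of 0.83 (SE 0.17) for the gene at chr7:120186380-120201989 (GRCm38). The edgeR adjusted p was 0.282 (unadjusted 0.00188), and the adjusted p was 0.228 by limma-voom and 0.00100 by DESeq2, so the call depends on the tool. The authors' deposited table gives an adjusted p of 0.000883. With each library left out in turn, the log2 fold change stayed between 0.75 and 0.92, with edgeR adjusted p of 0.307 to 0.958. The summed level of 5 other fibrocyte markers was 2205, 4419 and 4682 CPM in knockout and 1639, 2435 and 5684 CPM in wildtype libraries (exact permutation p = 0.9, two-sided). Crym correlated with that sum at r = 0.28 over the 6 libraries. The 5 markers differed in direction, and none was called. Otor, Otos and Tbx18 had log2 fold changes of 0.94, 0.47 and 0.05, and Slc4a11 and Car3 of −1.36 and −0.55. Slc4a11 and Car3 were highest in wildtype library 3, at 1446 and 703 CPM. Whether the Crym difference is shared by other fibrocyte genes was not tested.

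**Figure D1:**
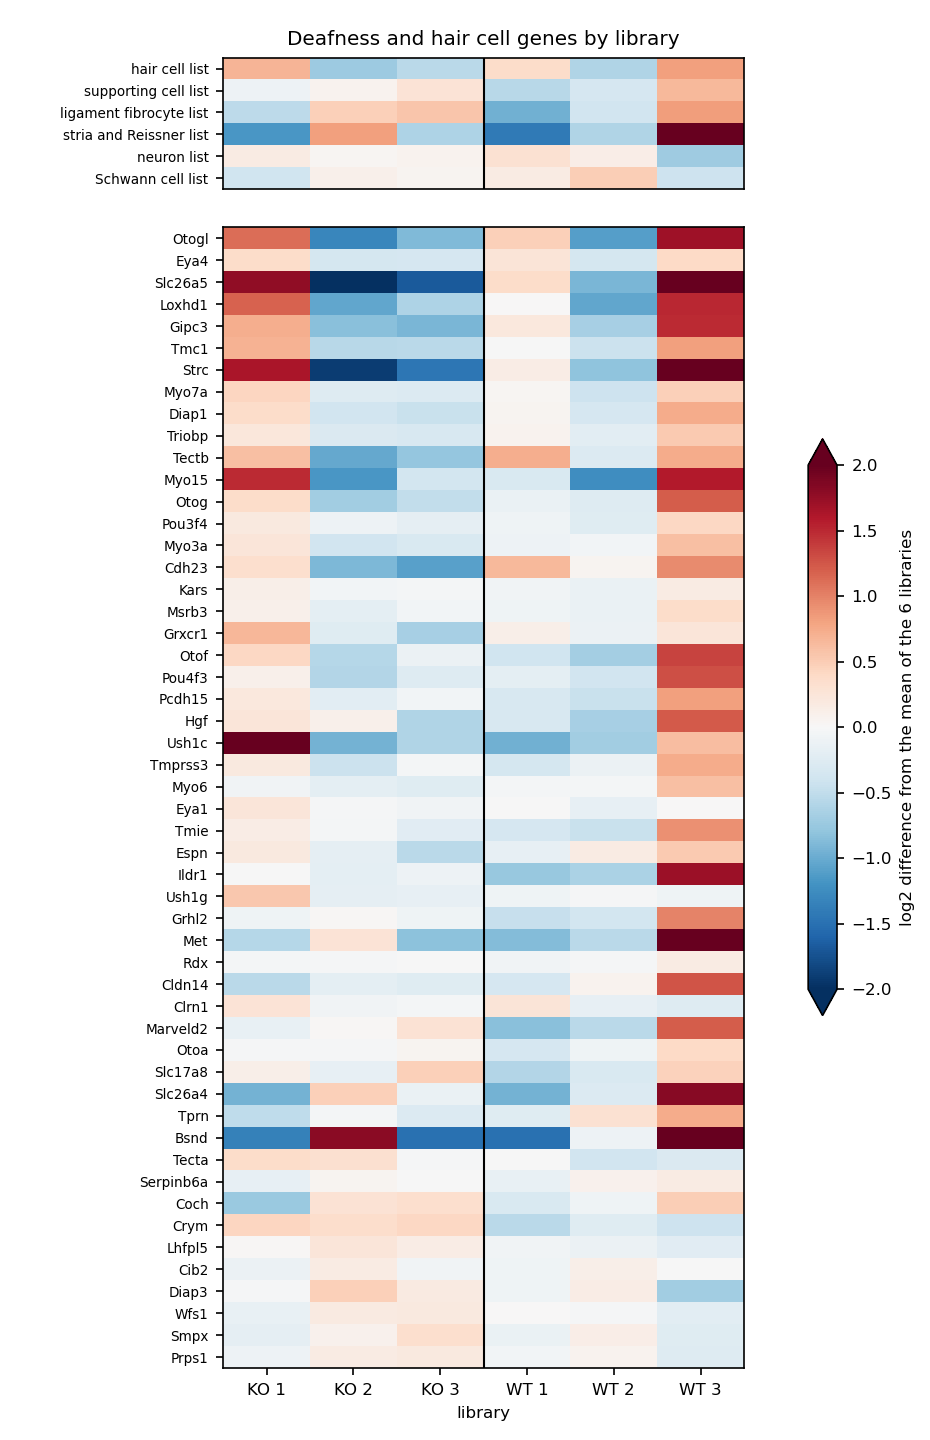
The colour gives each gene's log2(CPM + 0.5) as its difference from the mean of the 6 libraries (columns, knockout left of wildtype), with genes in order of their correlation with the hair cell list and the summed marker lists above them. Wildtype library 3 is the highest library for 38 of the 52 genes, and the share of all genes highest there was not counted.

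Over all 52 members, 13 had a higher and 39 a lower fitted level in knockout libraries, with a median log2 fold change of −0.22, where the median of all genes tested was −0.01. That direction rested on wildtype library 3. Without it, 39 members were higher and 13 lower in knockout libraries and the median was 0.16. Without knockout library 1 the counts were 11 higher and 41 lower. Without both of these libraries 28 were higher and 24 lower, with a median of 0.03. Relative to the wildtype mean, the median member differed by 0.12, −0.24 and −0.26 on the log2 scale in the knockout libraries and by −0.17, −0.30 and 0.46 in the wildtype libraries, which overlap.

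**Figure D2:**
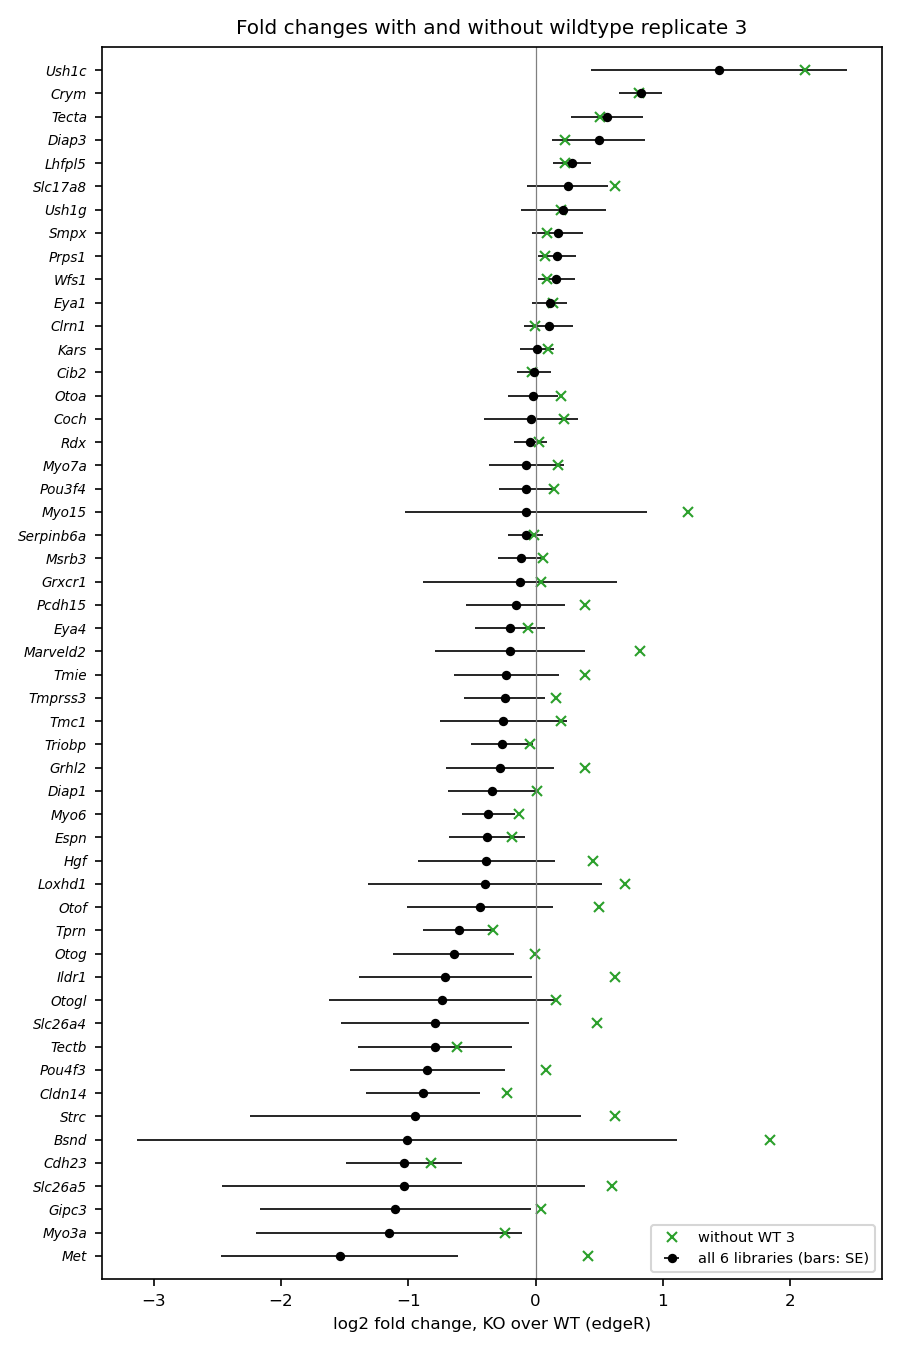
Points are edgeR log2 fold changes of knockout over wildtype (horizontal axis) for each of the 52 genes, with bars for the SE, and crosses are the same without wildtype library 3. The points lie to the left of 0 for 39 genes and the crosses for 13.

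Motors and links of the hair bundle formed the first role, with 10 members, of which 3 were higher and 7 lower in knockout libraries and none was called by edgeR, DESeq2 or limma-voom. Without wildtype library 3, 5 were higher and 5 lower. Per kilobase of exon, Cib2, a calcium-binding subunit of the transduction complex, had the highest level of them, with 38.3 CPM per kb in knockout and 38.7 CPM per kb in wildtype libraries. Its 50.5, 61.5 and 52.5 CPM in knockout libraries and 51.8, 59.5 and 55.0 CPM in wildtype libraries differed at most 1.22-fold. Cib2 was thus level across libraries that differed several-fold in hair bundle genes, although 15.8% of its exon bases overlap Sh2d7 on the opposite strand and the strand setting of the counting is not given in the sources used here. Myo6, a minus-end directed myosin of the hair cell's cuticular plate that also works in endocytosis elsewhere, was at 199, 182 and 177 CPM in knockout libraries and 203, 203 and 317 CPM in wildtype libraries. The knockout libraries lay just under the lowest wildtype libraries (log2 fold change −0.37, SE 0.21, edgeR unadjusted p = 0.121), and wildtype library 3 was far above the rest. Without that library the log2 fold change was −0.13. Ush1c, the scaffold harmonin, had 154, 13.0 and 16.6 CPM in knockout libraries and 12.9, 15.4 and 39.4 CPM in wildtype libraries. Knockout library 1 alone set its high knockout mean, and without that library the log2 fold change was −0.61 in place of 1.44. Cdh23, the cadherin of the upper part of the tip link, had 14.9, 6.00 and 5.21 CPM in knockout libraries and 18.5, 12.1 and 22.8 CPM in wildtype libraries. Only knockout library 1 overlapped the wildtype range, and the difference had an edgeR unadjusted p of 0.058 (log2 fold change −1.03, SE 0.45). Pcdh15, its partner in the tip link, was at 7.37 ± 1.18 CPM in knockout and 8.21 ± 4.54 CPM in wildtype libraries (SD, n = 3 each). Myo7a, the tip link motor, averaged 28.9 ± 8.63 CPM in knockout and 30.3 ± 9.32 CPM in wildtype libraries. Myo15 averaged 12.3 ± 12.3 CPM in knockout and 13.0 ± 13.3 CPM in wildtype libraries. Both were highest in wildtype library 3 and knockout library 1. Myo3a, an actin motor of stereocilia tips, was the lowest member per kilobase, at 0.0156 CPM per kb in knockout and 0.0342 CPM per kb in wildtype libraries. Ush1g, a scaffold of the tip link complex, stayed at 1.92 ± 0.731 CPM in knockout and 1.65 ± 0.0622 CPM in wildtype libraries. Clrn1, a membrane protein of bundle and synapse, stayed at 24.3 ± 3.43 CPM in knockout and 22.6 ± 4.59 CPM in wildtype libraries. Apart from Myo6, every member of this role overlapped between genotypes.

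Members of transduction, the ribbon synapse and outer hair cell motility numbered 7, with 2 higher and 5 lower in knockout libraries, and all 7 higher without wildtype library 3. Lhfpl5, a membrane protein that couples the tip link to the channel, was at 14.2, 16.7 and 15.4 CPM in knockout libraries and 13.3, 12.8 and 11.9 CPM in wildtype libraries. The knockout libraries were all above the wildtype libraries by a small margin (log2 fold change 0.29, SE 0.15, edgeR unadjusted p = 0.0991). Otof encodes otoferlin, the calcium sensor of vesicle release at the inner hair cell ribbon synapse, and had 43.9, 21.8 and 30.0 CPM in knockout libraries and 24.6, 20.3 and 84.5 CPM in wildtype libraries. Wildtype library 3 was the highest and knockout library 1 the next. Slc17a8, the vesicular glutamate transporter of inner hair cells, had 19.0, 15.5 and 24.4 CPM in knockout libraries and 11.5, 13.9 and 24.03 CPM in wildtype libraries, with overlapping ranges. Slc26a5 had 13.5, 0.466 and 0.789 CPM in knockout libraries and 4.81, 1.69 and 23.8 CPM in wildtype libraries. The highest of all libraries, wildtype library 3, held 51.1 times the level of the lowest, knockout library 2, and the range was 29.1-fold within the knockout and 14.1-fold within the wildtype libraries. The log2 fold change of −1.04 had an SE of 1.43, and was −4.01 without knockout library 1 and 0.60 without wildtype library 3. Tmc1, a pore subunit of the transduction channel, averaged 6.69 ± 3.91 CPM in knockout and 7.96 ± 3.86 CPM in wildtype libraries (SD, n = 3 each). Tmie, another subunit of that complex, averaged 6.77 ± 0.927 CPM in knockout and 7.93 ± 4.83 CPM in wildtype libraries. Loxhd1, a protein of the stereocilia membrane, averaged 3.58 ± 3.53 CPM in knockout and 4.72 ± 4.47 CPM in wildtype libraries. All 3 were highest in wildtype library 3 and overlapped between genotypes.

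Of 9 members that build or crosslink the bundle's actin core and surface, 1 was higher and 8 were lower in knockout libraries, and none was called. Without wildtype library 3, 6 were higher and 3 lower. Rdx, radixin, which ties actin to the membrane in many cells, was the steadiest of all members, with 188, 190 and 192 CPM in knockout libraries and 183, 188 and 214 CPM in wildtype libraries, a 1.17-fold range. Per kilobase it was at 40.9 CPM per kb in knockout and 42.1 CPM per kb in wildtype libraries, above 94.4% of counted genes. Tprn, taperin of the stereocilia base, had 11.6, 16.4 and 13.8 CPM in knockout libraries and 14.1, 20.9 and 28.6 CPM in wildtype libraries (log2 fold change −0.60, SE 0.28, edgeR unadjusted p = 0.0698), and the ranges overlapped. Without wildtype library 3 the log2 fold change was −0.33. Diap1, an actin-nucleating formin, had 46.1, 27.0 and 25.9 CPM in knockout libraries and 37.1, 28.0 and 60.1 CPM in wildtype libraries, and it too peaked in wildtype library 3 and knockout library 1. Strc encodes stereocilin, which links outer hair cell stereocilia to each other and to the tectorial membrane, and had 13.0, 0.672 and 1.11 CPM in knockout libraries and 4.37, 2.00 and 22.1 CPM in wildtype libraries. Its order of libraries was that of Slc26a5, over a 32.9-fold range. Gipc3, a scaffold protein of hair cells, varied 15.1-fold, with 0.740 ± 0.866 CPM in knockout and 1.58 ± 1.55 CPM in wildtype libraries. Triobp, which bundles actin in stereocilia rootlets, averaged 42.0 ± 9.51 CPM in knockout and 50.5 ± 13.3 CPM in wildtype libraries. Gipc3 and Triobp were highest in wildtype library 3 and next in knockout library 1. Espn, an actin bundler, averaged 5.23 ± 1.47 CPM in knockout and 6.80 ± 1.70 CPM in wildtype libraries. Grxcr1, a regulator of bundle actin, averaged 0.494 ± 0.485 CPM in knockout and 0.536 ± 0.128 CPM in wildtype libraries. Diap3, a formin whose overexpression affects the inner hair cell synapse, was the member of this role that was higher, at 2.43 ± 0.513 CPM in knockout and 1.72 ± 0.621 CPM in wildtype libraries. Every member of this role overlapped between genotypes.

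**Figure D3:**
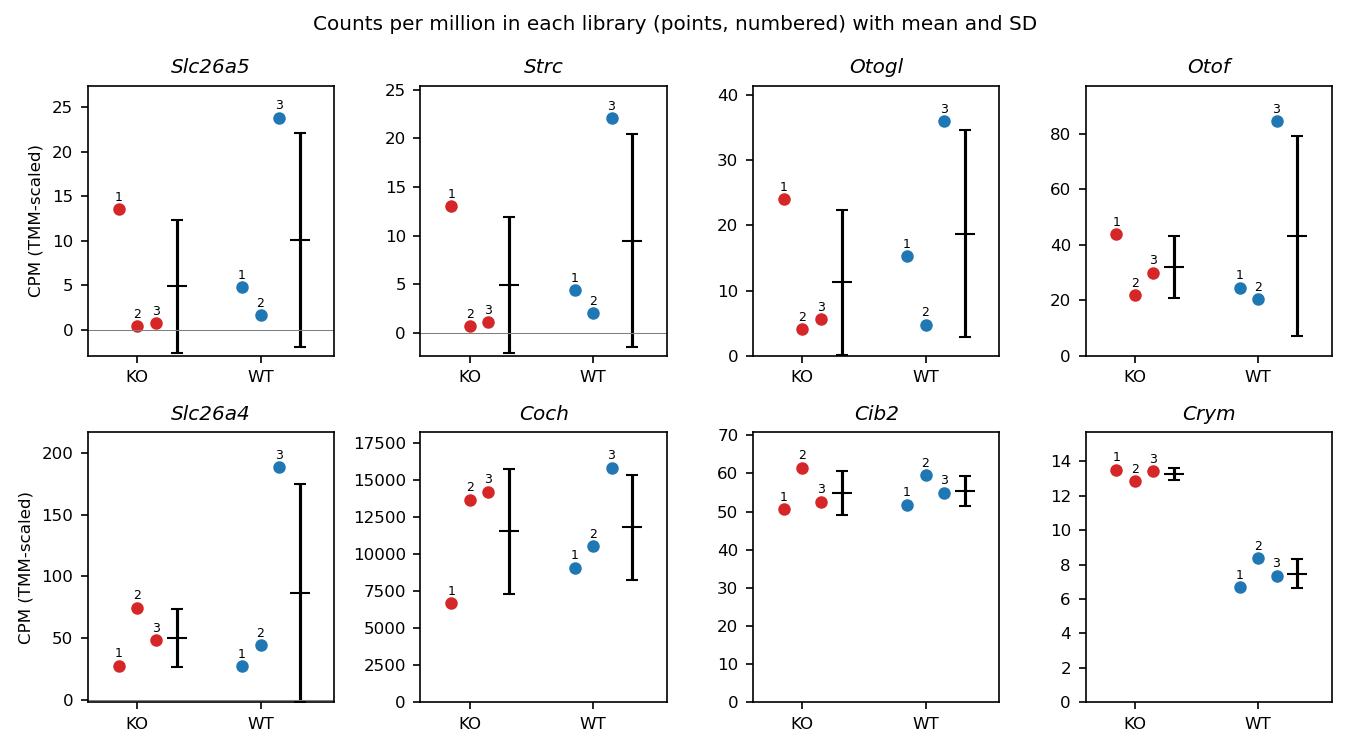
Points are CPM of single libraries (vertical axis, linear), numbered by replicate, with the mean and SD of each genotype beside them, where an SD above the mean reaches below 0. Slc26a5, Strc and Otogl are spread within each genotype, Cib2 is level, and the Crym points of knockout libraries all lie above those of wildtype libraries.

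The tectorial membrane and related gels gave 5 members, 1 higher and 4 lower in knockout libraries, or 3 higher and 2 lower without wildtype library 3. Otoa, otoancorin, which anchors the gel to the epithelium, was the highest of them per kilobase, with 113, 112 and 119 CPM in knockout libraries and 90.6, 108 and 151 CPM in wildtype libraries. Its knockout libraries lay inside the wildtype range. Otog, otogelin, had 70.6, 33.5 and 38.9 CPM in knockout libraries and 49.96, 45.6 and 128 CPM in wildtype libraries. Otogl, the otogelin-like protein, had 24.03, 4.07 and 5.62 CPM in knockout libraries and 15.3, 4.78 and 35.9 CPM in wildtype libraries. Both were highest in wildtype library 3 and next in knockout library 1. Tecta, alpha-tectorin, the main non-collagenous protein of the tectorial membrane, had 2.66, 2.53 and 1.91 CPM in knockout libraries and 1.93, 1.38 and 1.497 CPM in wildtype libraries. Knockout libraries 1 and 2 lay above the wildtype range and knockout library 3 just inside it, for a log2 fold change of 0.56 (SE 0.28, edgeR unadjusted p = 0.0873). Tectb, beta-tectorin, was lower in knockout libraries by its fitted level, with 2.35 ± 1.86 CPM in knockout and 4.06 ± 1.59 CPM in wildtype libraries (SD, n = 3 each).

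All 6 members of epithelial junctions and ion transport had a lower fitted level in knockout libraries, with a median log2 fold change of −0.75 and none called. Without wildtype library 3, 5 of them were higher and 1, Cldn14, was lower, with a median of 0.55. Slc26a4 encodes pendrin, the chloride-bicarbonate exchanger of the outer sulcus and spindle cells, and had 27.4, 74.4 and 48.3 CPM in knockout libraries and 27.2, 44.0 and 188 CPM in wildtype libraries. Its log2 fold change of −0.79 (SE 0.74) became 0.48 without wildtype library 3. Tmprss3, a membrane serine protease, had 38.8, 25.0 and 32.8 CPM in knockout libraries and 26.5, 31.1 and 56.7 CPM in wildtype libraries, for a log2 fold change of −0.24, or 0.16 without wildtype library 3. Ildr1 had 11.8, 10.2 and 10.9 CPM in knockout libraries and 6.76, 7.41 and 39.6 CPM in wildtype libraries. Without wildtype library 3 its log2 fold change was 0.62 in place of −0.71, since the knockout libraries lay above the other wildtype libraries and below that library. The same held for Marveld2, tricellulin, with 4.74, 5.36 and 6.56 CPM in knockout libraries and 2.74, 3.51 and 12.9 CPM in wildtype libraries. Cldn14, a tight junction claudin, had 3.85, 5.04 and 4.84 CPM in knockout libraries and 4.50, 6.16 and 14.6 CPM in wildtype libraries (log2 fold change −0.88, SE 0.45, edgeR unadjusted p = 0.0913), and −0.23 without wildtype library 3. Bsnd, barttin, the chloride channel subunit of strial marginal cells and of the kidney, had 0.0659, 4.57 and 0.0116 CPM in knockout libraries and 0.0120, 0.846 and 8.54 CPM in wildtype libraries. It was at or under 3 counts in a library of each genotype, and its high libraries were knockout library 2 and wildtype library 3. Its fitted log2 fold change was −1.01, and 1.84 without wildtype library 3.

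Among the 5 transcription factors 1 was higher and 4 were lower in knockout libraries, or 4 higher and 1 lower without wildtype library 3. Eya1, a co-activator of early ear development, had 144, 120 and 116 CPM in knockout libraries and 121, 109 and 123 CPM in wildtype libraries, a 1.33-fold range. Pou3f4, known from the mesenchyme around the cochlea, had 29.1, 23.6 and 22.2 CPM in knockout libraries and 23.8, 21.2 and 33.8 CPM in wildtype libraries. Eya4, a relative of Eya1, had 83.6, 50.7 and 51.3 CPM in knockout libraries and 77.3, 50.8 and 85.3 CPM in wildtype libraries. The Eya4 level split each genotype in the same manner as the summed hair cell markers did. Pou4f3, the factor that keeps hair cells alive, was at 1.35 ± 0.439 CPM in knockout and 2.43 ± 2.02 CPM in wildtype libraries (SD, n = 3 each). Grhl2, a factor of epithelia, was at 7.38 ± 0.389 CPM in knockout and 8.97 ± 5.79 CPM in wildtype libraries.

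Coch, which encodes cochlin, the main secreted matrix protein of spiral ligament fibrocytes, was by far the highest member per kilobase, at 3843 CPM per kb in knockout and 3940 CPM per kb in wildtype libraries. It had 6699, 13659 and 14203 CPM in knockout libraries and 9083, 10536 and 15817 CPM in wildtype libraries, a 2.36-fold range. The genotypes overlapped throughout (log2 fold change −0.04, SE 0.37). Coch correlated with the sum of the other fibrocyte markers at r = 0.87 over the 6 libraries (Spearman's rho 0.94, exact permutation p = 0.0375, adjusted p = 0.292). Without the 2 libraries farthest from that list's median r was 0.90. Otos made most of that sum in every library, with 1799, 3569 and 3993 CPM in knockout and 1323, 2028 and 3398 CPM in wildtype libraries.

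The remaining 8 members work in many tissues, and 4 were higher and 4 lower in knockout libraries, or 7 higher and 1 lower without wildtype library 3. Prps1 had 44.3, 53.1 and 54.2 CPM in knockout libraries and 45.7, 49.7 and 39.5 CPM in wildtype libraries. Of its 50-base stretches, 10.1% also occur in another locus, mostly Prps1l3, so its counts carry some ambiguity. Wfs1, wolframin of the endoplasmic reticulum, had 71.3, 89.9 and 91.2 CPM in knockout libraries and 79.7, 77.5 and 68.3 CPM in wildtype libraries. Kars, the lysyl-tRNA synthetase, had 94.9, 83.9 and 84.8 CPM in knockout libraries and 83.5, 79.8 and 98.4 CPM in wildtype libraries. Each of these had overlapping genotypes and a range under 1.5-fold. Serpinb6a, an intracellular protease inhibitor, was at 105 ± 8.27 CPM in knockout and 111 ± 12.4 CPM in wildtype libraries, although 14.1% of its exon bases overlap Nqo2 on the opposite strand. Msrb3, a methionine sulfoxide reductase, was at 27.4 ± 3.00 CPM in knockout and 29.7 ± 6.05 CPM in wildtype libraries. Smpx, a small muscle-enriched protein, was at 15.95 ± 2.99 CPM in knockout and 14.1 ± 2.01 CPM in wildtype libraries. The growth factor Hgf and its receptor Met were the variable pair of the role. Hgf was at 11.3 ± 3.33 CPM in knockout and 14.7 ± 11.4 CPM in wildtype libraries. Met was at 18.6, 33.9 and 15.5 CPM in knockout libraries and 14.99, 19.0 and 164 CPM in wildtype libraries, so wildtype library 3 alone carried the log2 fold change of −1.54, which was 0.41 without it.

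By level, 28 members were above the median of the 19746 counted genes with a known exon length, per kilobase, and 10 were in the top 20%. These were Coch, Rdx, Cib2, Prps1, Slc26a4, Wfs1, Serpinb6a, Kars, Myo6 and Eya1. By range over the libraries, 10 members varied under 1.5-fold, 24 varied 1.5-fold to 4-fold, 16 varied over 4-fold, and Myo3a and Bsnd had 3 or fewer counts in a library. The steady members were Clrn1, Cib2, Lhfpl5, Eya1, Wfs1, Kars, Msrb3, Rdx, Serpinb6a and Prps1, so present in each dissection at nearly the same level. The members that varied over 4-fold were Myo15, Cdh23, Ush1c, Otof, Strc, Tectb, Otogl, Slc26a4, Slc26a5, Pou4f3, Loxhd1, Grxcr1, Ildr1, Marveld2, Met and Gipc3. The counts by range, and those by library that follow, were not made over all genes, so they have no background here. Wildtype library 3 was the highest library for 38 members, and for 24 of these knockout library 1 was next.

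Of the marker lists for neighbouring tissue, the hair cell list had the same 2 highest libraries. The summed level of 16 hair cell markers that are not members was 151, 56.8 and 64.9 CPM in knockout and 122, 61.8 and 167 CPM in wildtype libraries (exact permutation p = 0.6, two-sided). Atoh1, a defining factor of developing hair cells, had no count in any library, and the outer hair cell calcium buffer Ocm was at 29.2, 3.02 and 5.44 CPM in knockout and 15.9, 4.91 and 59.5 CPM in wildtype libraries. A list of 10 supporting cell markers summed to 824, 920 and 1066 CPM in knockout and 599, 699 and 1379 CPM in wildtype libraries (exact permutation p = 0.9). A list of 9 stria and Reissner membrane markers summed to 113, 442 and 163 CPM in knockout and 94.2, 165 and 1991 CPM in wildtype libraries (exact permutation p = 0.8). Wildtype library 3 had the highest sum for each of these 3 lists, followed by knockout library 1 for hair cell, knockout library 3 for supporting cell and knockout library 2 for stria markers. The genotypes overlapped in each sum. Abundant genes weigh most in a sum, and genes of a list differed. Ceacam16 (716 CPM), Epyc (343 CPM), Fgfr3 and Lgr5 were highest in wildtype library 3. Hey2, Hes5 and Matn4 of the same supporting cell list were lowest there, at 33.5, 0.257 and 5.53 CPM. Pmel of the stria list was highest in knockout library 3. Of the hair cell list, Ocm, Gfi1, Chrna10, Barhl1, Pkhd1l1 and Tomt were highest in wildtype library 3 and next in knockout library 1. Ptprq was instead at 41.5, 3.07 and 3.59 CPM in knockout and 43.1, 7.88 and 14.6 CPM in wildtype libraries. Strip2 was highest in knockout library 1 and next in wildtype library 1. Kcna10, Xirp2, Acbd7 and Cabp2 were highest in wildtype library 3 and next in knockout library 3.

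A correlation of at least 0.8 with the summed hair cell markers over the 6 libraries was seen for 19 of 52 members (36.5%), against 13.0% of all genes tested outside the list. The list held no member. The median member had r = 0.68, and the median of all genes was −0.03. The members at or above 0.8 were Otogl, Eya4, Slc26a5, Loxhd1, Gipc3, Tmc1, Strc, Myo7a, Diap1, Triobp, Tectb, Myo15, Otog, Pou3f4, Myo3a, Cdh23, Kars, Msrb3 and Grxcr1. Of these, 9 varied over 4-fold between libraries and 2, Kars and Msrb3, under 1.5-fold. For Otogl r was 0.994 (Spearman's rho 1.00, exact permutation p = 0.00139, adjusted p = 0.177 over 100332 relations), and it was 0.998 without wildtype library 3 and knockout library 1, the 2 libraries farthest from the list's median. For Slc26a5 r was 0.969 (rho 0.94, exact permutation p = 0.00417, adjusted p = 0.187), and 0.915 without those libraries. For Otof it was 0.792 (rho 0.89, exact permutation p = 0.0417, adjusted p = 0.302) and 0.21 without them, so that relation rests on those 2 libraries. Among the libraries then left, wildtype library 1 had a hair cell sum of 122 CPM and the others 56.8 to 64.9 CPM. Each r without the 2 farthest libraries therefore rests mainly on wildtype library 1, also for Otogl and Slc26a5. Of the list, Ptprq and Strip2 were at 43.1 and 35.1 CPM in that library. The smallest permutation p reached over 6 libraries was 0.00139, and no gene of the table reached an adjusted p under 0.05 with any list. Without the 2 farthest libraries 12 members were at 0.8 or above, and taken as deviations from the genotype means 21 were. The share of all genes was not counted in either setting, so these counts have no background.

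Correlation of at least 0.8 with the stria and Reissner membrane markers was seen for 13 members (25.0%, against 10.1% of genes), with supporting cell markers for 8 (15.4%, against 6.34%) and with fibrocyte markers for 4 (7.69%, against 7.49%). The stria list was led by Slc26a4 (r = 0.988, rho 0.94, exact permutation p = 0.00417, adjusted p = 0.187; 0.957 without the 2 farthest libraries) and Met (r = 0.973, rho 0.94, exact permutation p = 0.00694, adjusted p = 0.195), whose r of 0.32 without the 2 farthest libraries shows that it rests on them. Marveld2 followed the supporting cell list at r = 0.987 (rho 1.00, exact permutation p = 0.00139, adjusted p = 0.177) and 0.995 without the 2 farthest libraries. No member reached 0.8 with the spiral ganglion neuron or the Schwann cell markers, against 10.4% and 6.37% of genes, and the median member had r = −0.63 and −0.68 with them. That count of 0 rests on 2 libraries for each list, since without the 2 farthest 9 members reached 0.8 with the neuron markers (without wildtype libraries 3 and 1) and 4 with the Schwann cell markers (without wildtype library 3 and knockout library 1). The share of all genes was not counted without those libraries. Of the 6 lists, the largest r was with the neuron markers for 4 members and with the Schwann cell markers for 4. These were Clrn1, Diap3, Lhfpl5 and Tecta for neuron, and Cib2, Prps1, Smpx and Wfs1 for Schwann cell markers. Among them r was highest for Diap3 (0.73) and Clrn1 (0.70), or −0.94 and 0.51 without the 2 farthest libraries. No member reached 0.8 with both the hair cell and the stria markers.

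**Figure D4:**
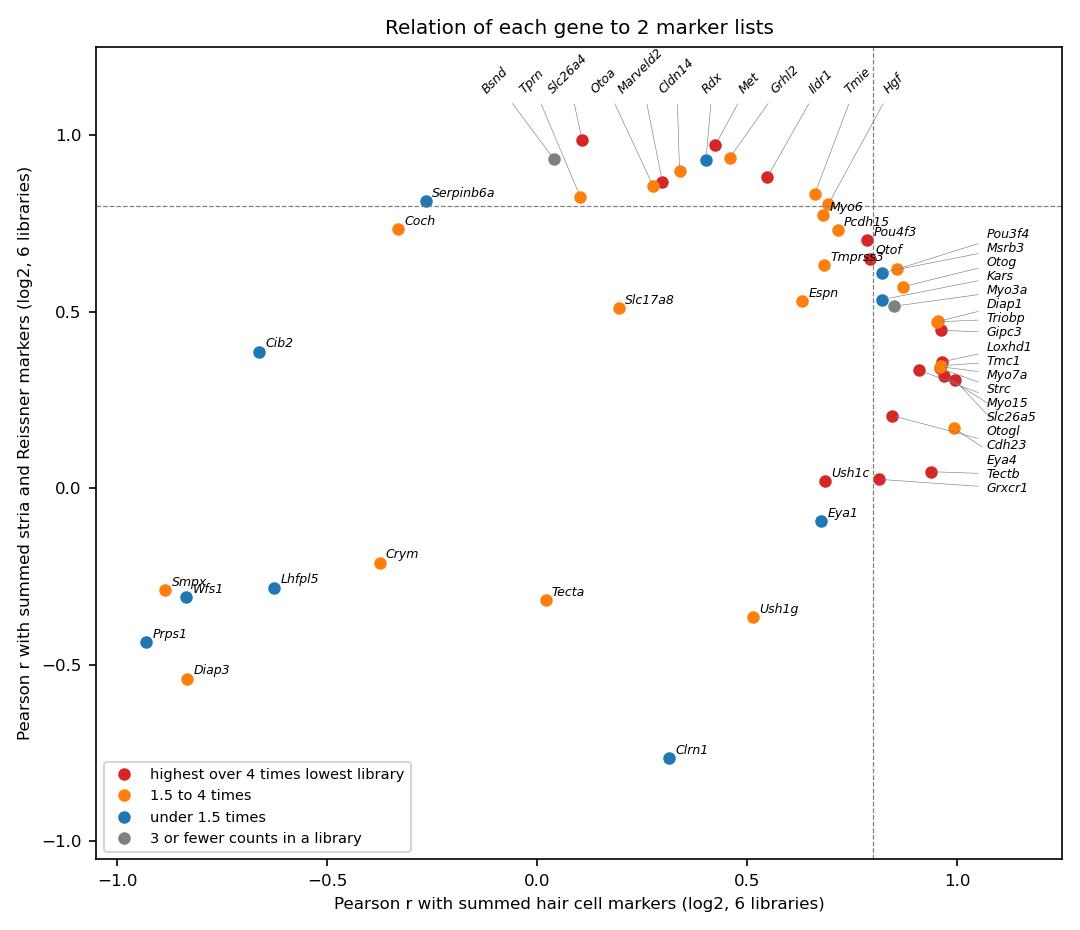
Each point is a gene, placed by its Pearson r over the 6 libraries with the summed hair cell markers (horizontal axis) and with the summed stria and Reissner membrane markers (vertical axis), and coloured by the ratio of its highest to its lowest library. Dashed lines stand at 0.8, and no gene lies past both.

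At r of 0.8 or more with none of the hair cell, supporting cell, fibrocyte and stria lists, 17 members remained, namely Cib2, Clrn1, Crym, Diap3, Espn, Eya1, Lhfpl5, Myo6, Otof, Pou4f3, Prps1, Smpx, Tecta, Tmprss3, Ush1c, Ush1g and Wfs1. Some of them missed the cutoff only by this measure. Pou4f3 had r = 0.786 and rho 1.00 with the hair cell list. With the mean of log2 values as that list's level, r was 0.918 for Otof, 0.914 for Pou4f3, 0.874 for Tmprss3 and 0.814 for Myo6. Against the hair cell list Prps1 had r = −0.93 (rho −0.83, exact permutation p = 0.0111, adjusted p = 0.207), Smpx −0.89, Wfs1 −0.84, Diap3 −0.83, Cib2 −0.66 and Lhfpl5 −0.63. Prps1, Smpx and Wfs1 were lowest in wildtype library 3 and next lowest in knockout library 1. All relations share the 6 libraries and their scaling, and the cells from which the transcripts came were not measured, so the part of neighbouring tissue in the members' levels was not tested.

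A list of 46 other genes of inherited deafness was read beside the members. Of the 45 that passed the filter on low counts, 13 were higher and 32 lower in knockout libraries, with a median log2 fold change of −0.18, and edgeR called 0. By unadjusted edgeR p under 0.05 there were 4 (Pdzd7, Ednrb, Eps8 and Pax3), against 5.2% of all genes. DESeq2 called 2, both lower in knockout libraries, against 1.39% of all genes. Genotypes did not overlap for 1 gene higher in knockout libraries (5.42% of all genes) and 3 lower (4.93% of all genes). Pdzd7 (chr19:45026907-45058633), a scaffold of the ankle links at the base of the hair bundle, had 10.4, 5.50 and 7.77 CPM in knockout libraries and 25.4, 19.5 and 23.6 CPM in wildtype libraries. All knockout libraries lay far below all wildtype libraries. The part of neighbouring tissue in the Pdzd7 difference was not tested. Its log2 fold change was −1.53 (SE 0.26), with an edgeR adjusted p of 0.180, a DESeq2 adjusted p of 4.17e-05 and an adjusted p of 4.09e-05 in the authors' deposited table. With each library left out in turn it stayed between −1.78 and −1.33, with edgeR adjusted p of 0.142 to 0.772. Of its exon bases, 5.08% overlap Lzts2 on the opposite strand. Ednrb (chr14:103814615-103844508), an endothelin receptor of melanocytes and glia, had 28.9, 53.3 and 35.3 CPM in knockout libraries and 67.0, 78.6 and 102 CPM in wildtype libraries, again without overlap. Its log2 fold change was −1.08 (SE 0.27), with an edgeR adjusted p of 0.467 and a DESeq2 adjusted p of 0.0248. Central glia markers, 6 genes, summed to 476, 541 and 337 CPM in knockout and 843, 1169 and 534 CPM in wildtype libraries (exact permutation p = 0.2). Stria and Reissner membrane markers, 9 genes, summed to 113, 442 and 163 CPM in knockout and 94.2, 165 and 1991 CPM in wildtype libraries (exact permutation p = 0.8). The part of either list in the Ednrb difference was not tested. Eps8, an actin-capping protein of stereocilia tips, was at 7.78 ± 2.09 CPM in knockout and 13.8 ± 5.21 CPM in wildtype libraries (SD, n = 3 each) without overlap. Pax3, a melanocyte factor, was at 0.826 ± 0.530 CPM in knockout and 2.97 ± 2.21 CPM in wildtype libraries, with overlap. The adhesion receptor Gpr98, which forms the ankle links, was the only gene of this list above the wildtype range in every knockout library, at 4.18 ± 1.39 CPM in knockout and 2.72 ± 0.335 CPM in wildtype libraries.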

How the data were processed

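RNA of 6 auditory nerve samples was sequenced after TruSeq library preparation, per the labels' protocols. The deposited table holds whole-number counts per gene and sample, which the authors made with HTSeq on mm10, per the submitters' processing notes, with no versions given. The same table holds a log2 fold change and an adjusted p-value of the authors, made with DESeq2 per the submitters' processing notes. No source used here names the aligner, the strand setting or the annotation.

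Columns were matched to samples by title and description. Rows of 5 repeated symbols were joined, giving 24062 symbols. Counts were tested with edgeR 4.0.16 (filterByExpr, TMM, quasi-likelihood, robust) under R 4.3.3, with Benjamini-Hochberg adjustment over all 16722 genes and a threshold of 0.05. DESeq2 1.42.0 and limma 3.58.1 (voom) were alternatives, with other scalings, filters, a replicate block and each library left out. CPM are TMM-scaled, and levels per kilobase use the merged exons of GENCODE vM21. The deposited counts reach 74530860 to 92513887 per library, where 3 counts equal 0.0325 to 0.0395 CPM. Each library came from its own mouse, per the labels' protocols, so p-values cover the spread between these animals. Serial numbers in the column names form a separate run for each genotype, and their meaning is not given. Any difference in handling that went with those runs cannot be told apart from genotype. Any 2 libraries differed by far more than sampling noise (chi-square per degree of freedom 41.7 or more). Relations are Pearson's r and Spearman's rho of log2(CPM + 0.5) with log2 summed CPM of 6 marker lists. They were given exact permutation of the 6 libraries (720 orders) and adjustment over 100332 relations, computed with numpy 2.4.6 and ranks from scipy 1.17.1. The fits were tested on simulated data. The members and lists were chosen with earlier results of these data known. Per-library values are given for members past a threshold in edgeR or DESeq2, the 3 highest per kilobase in each role, the 5 of smallest unadjusted p and Vcan, and for other members whose libraries differed much, chosen after their values were seen.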

Additional observations from a re-analysis of the deposited data

How the results depend on the processing

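Over all genes edgeR called 23, and the count was 252 with DESeq2, 3 with the replicate block, 14, 3 and 5 without knockout libraries 1, 2 and 3 in turn, 7, 3 and 7 without wildtype libraries 1, 2 and 3 in turn, and 83 without wildtype library 3 and knockout library 1, an alternative chosen after seeing the data. Other scalings, filters and limma-voom gave 22 to 26. Members called were 0, and other inherited deafness genes called were 0, in every setting except DESeq2, which called 1 and 2. The median log2 fold change of the members was −0.22, and −0.43 to 0.16 with each library left out, the 0.16 without wildtype library 3, and the cause was not tested. With each library left out, 32 members changed sign in some fit, 28 of them without wildtype library 3. Of the members' alternative fold changes, 632 moved by less than the spread between replicates, 40 by more, and 1, Crym in DESeq2, passed the threshold.

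The number of members at r of 0.8 or more depended on the settings. The share of all genes was counted only for the main setting. Without the 2 farthest libraries it was 12 in place of 19 for hair cell, 5 in place of 8 for supporting cell, 9 in place of 0 for neuron, 4 in place of 0 for Schwann cell and 6 in place of 13 for stria markers. As deviations from the genotype means it was 15 for supporting cell, 10 in place of 4 for fibrocyte and 4 for Schwann cell markers. With the mean of log2 values as the list's level it was 5 for supporting cell and 8 for stria markers. The stria list was added after seeing the data.

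Deviations of same-numbered libraries from their genotype means correlated at 0.478, 0.320 and −0.160, so the numbers were not taken to pair animals. These numbers are those of the sample titles, and the table's column names number the knockout animals 1, 3 and 4. By column name only numbers 1 and 3 would be shared, with correlations of 0.478 and 0.180. Wildtype library 2 correlated best with knockout library 3 (0.482) and wildtype library 3 with knockout library 2 (0.180). With the replicate block, which used the title numbers, the median log2 fold change of the members was −0.11 and 0 members were called. Pairing by column name was not tested.

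With 3 libraries a genotype, members whose libraries differ several-fold have wide errors, such as an SE of 1.43 on the log2 scale for Slc26a5, so differences of that size were not detectable, and for Myo3a and Bsnd 3 or fewer counts in a library limit the values.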
